A study of Mus musculus with 6 samples.

Results

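The 8 genes described here encode hepatocyte transcription factors of 4 families. They are the forkhead factors Foxa1, Foxa2 and Foxa3, the C/EBP factors Cebpa, Cebpb and Cebpd, the cut-homeodomain factor Onecut1, and the homeodomain factor Prox1. They were chosen by symbol from the 20140 genes listed in the count table, and all 8 were listed and passed the filter on low counts, as did 16370 genes in all. Bulk poly(A) RNA of whole mouse liver was sequenced on day 21 in 3 groups of 2 livers. Sham mice received PBS in place of tumor cells. The labels name the other groups intra-C and intra-S. By the study's description of its models these stand for CT26 cells implanted orthotopically into the cecum, where the liver is premetastatic on day 21, and for CT26 cells injected into the spleen, where metastases form in the liver. CT26 cells derive from a colorectal carcinoma of a BALB/c mouse, and the study describes its CT26 models in BALB/c mice. Its methods give an age of 6 to 10 weeks over all tumor models, which also used another strain, and the labels state neither strain nor age for these livers. The injection site changed together with the group, so that the route and the stage of disease cannot be told apart. The labels do not state the origin of the 2 livers of a group beyond their number, and p-values then measure only the spread between these samples.

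FOXA proteins are pioneer factors: they bind their sites in closed chromatin and open liver enhancers for other factors. Foxa1 and Foxa2 act early in liver development and share many targets in the adult, and Foxa3 is prominent in adult hepatocytes, where it takes part in glucose homeostasis. C/EBP proteins are leucine zipper factors that bind DNA as dimers. Cebpa maintains the metabolic program of the quiescent hepatocyte, whereas Cebpb and Cebpd are best known as mediators of the acute phase response to IL-6 and IL-1 and are also expressed in myeloid cells. Onecut1 guides biliary and hepatocyte differentiation. Prox1 is needed for hepatocyte migration out of the liver bud and is also a lineage factor of lymphatic endothelium.

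Promoter sequences were taken from RefSeq on GRCm38.p6, which is the assembly behind the mm10 build used for the counts. The promoters of Foxa3 and Cebpa are shown because these genes were called in opposite directions, Foxa3 higher in intra-S and Cebpa lower in intra-C than in sham livers, and each holds the letters TATAAA, printed in capitals, close to its start. The windows are the 250 bases before the start, at chr7:19023540-19023789 on the minus strand for Foxa3 and at chr7:35119043-35119292 on the plus strand for Cebpa.
Foxa3: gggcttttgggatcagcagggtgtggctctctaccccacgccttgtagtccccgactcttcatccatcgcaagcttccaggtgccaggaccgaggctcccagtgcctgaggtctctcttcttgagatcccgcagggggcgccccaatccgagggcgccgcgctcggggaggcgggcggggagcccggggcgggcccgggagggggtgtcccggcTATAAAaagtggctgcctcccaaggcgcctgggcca
Cebpa: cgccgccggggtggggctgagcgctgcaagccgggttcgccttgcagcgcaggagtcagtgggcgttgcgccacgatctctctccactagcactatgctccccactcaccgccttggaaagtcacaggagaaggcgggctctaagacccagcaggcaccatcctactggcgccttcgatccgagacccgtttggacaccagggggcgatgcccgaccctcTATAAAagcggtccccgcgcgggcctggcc
The TATAAA began at position -36 from the start in Foxa3 and at -30 in Cebpa, and 12.4% of 32851 promoter windows of this length in the table held TATAAA or its reverse TTTATA. The reverse letters also occurred in a Foxa2 window, at -208, and in a Prox1 window, at -34. Further 30-base windows are shown for Foxa1 at chr12:57546234-57546263 and for Prox1 at chr1:190169617-190169646, both on the minus strand, because these members hold the FOXA letters TGTTTNC or their reverse GNAAACA, in capitals.
Foxa1: tatactgctttGTAAACAaagtgagggcca
Prox1: tatttgcttgcTGTTTGCatacctttcact
The FOXA letters began at position -141 from the start in Foxa1 and at -120 from the more downstream of the 2 starts of Prox1, and 17.8% of all windows held them. The Foxa1 start in the table lies inside the span of the gene. The Prox1 window lies in bases that the annotation also gives to an exon of the antisense gene Gm28172. The letters of a C/EBP site (TTNNGCAA or TTGCNNAA, in 9.56% of all windows) and of a STAT site (TTCNNNGAA, in 7.02%) were not found in the windows of the members other than Cebpd, whose promoter was not analysed here. The letters of a CREB-type core (TGACG or CGTCA, in 17.8% of all windows) occurred 3 times in the Cebpb window, with first bases at -180, -53 and -7, and at -139 in that of Onecut1. The matches in the members' windows did not overlap each other, and they describe letters only, not binding.

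In sham livers the members spanned a wide range of levels. TPM, the length-scaled value that allows levels to be compared between genes, averaged 187 ± 61.7 for Cebpa and 124 ± 62.3 for Cebpb (mean ± SD, n = 2 livers here and below). Foxa3 followed with 30.8 ± 3.08 TPM, Prox1 with 26.9 ± 1.34 and Foxa2 with 16.9 ± 3.12. The order of Cebpa and Cebpb differed between the sham livers, whereas Foxa3 lay just above Prox1 in both. Foxa1 had 7.85 ± 0.128 TPM, Cebpd 3.46 ± 3.05 and Onecut1 2.62 ± 0.00304, the lowest mean of the 8, although Cebpd lay below Onecut1 in the second sham liver. Cebpa thus lay at or above 96.6% of all listed genes and Onecut1 at or above 53.8%. In intra-C livers the order of means changed, with Cebpb first (137 ± 5.63 TPM), Foxa3 next (56.0 ± 16.5) and then Cebpa (51.0 ± 13.0), and the livers of Foxa3 and Cebpa overlapped. In intra-S livers Cebpb also had the highest mean (187 ± 87.9 TPM), followed by Cebpa (95.9 ± 27.9) and Foxa3 (64.6 ± 7.06), in the same order in both livers. By group means, Cebpd moved from rank 7 among the 8 in sham livers to rank 5 in intra-C and rank 4 in intra-S livers. It was the lowest of the 8 in the second sham liver.

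The members did not move as a block. In intra-C versus sham livers, edgeR's quasi-likelihood test at an adjusted p under 0.05 called 0 members higher and 1 lower (Cebpa), where 4.92% of all genes were called higher and 2.38% lower (7.30% in either direction). The median log2 fold change of the 8 was -0.04, against 0.01 over all genes tested. In intra-S versus sham livers 2 members were called higher (Foxa3 and Cebpd) and 0 lower, where 6.78% of all genes were called higher and 3.95% lower (10.7% in either direction), and the medians were -0.40 for the members and 0.04 for all genes. At an unadjusted p under 0.05 there were 4 members in each comparison, against 27.0% and 30.2% of all genes. Both comparisons use the same sham livers. In intra-C versus sham livers, 3 members lay above and 3 below without overlap, where 34.4% of all genes lay above and 34.0% below (68.4% in either direction). In intra-S versus sham livers 2 members lay above and 3 below, where 30.4% of all genes lay above and 30.0% below (60.4%), so that a lack of overlap is common in a 2 versus 2 design. An exact permutation test of 2 against 2 livers cannot give a p below 0.333.

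**Figure D1:**
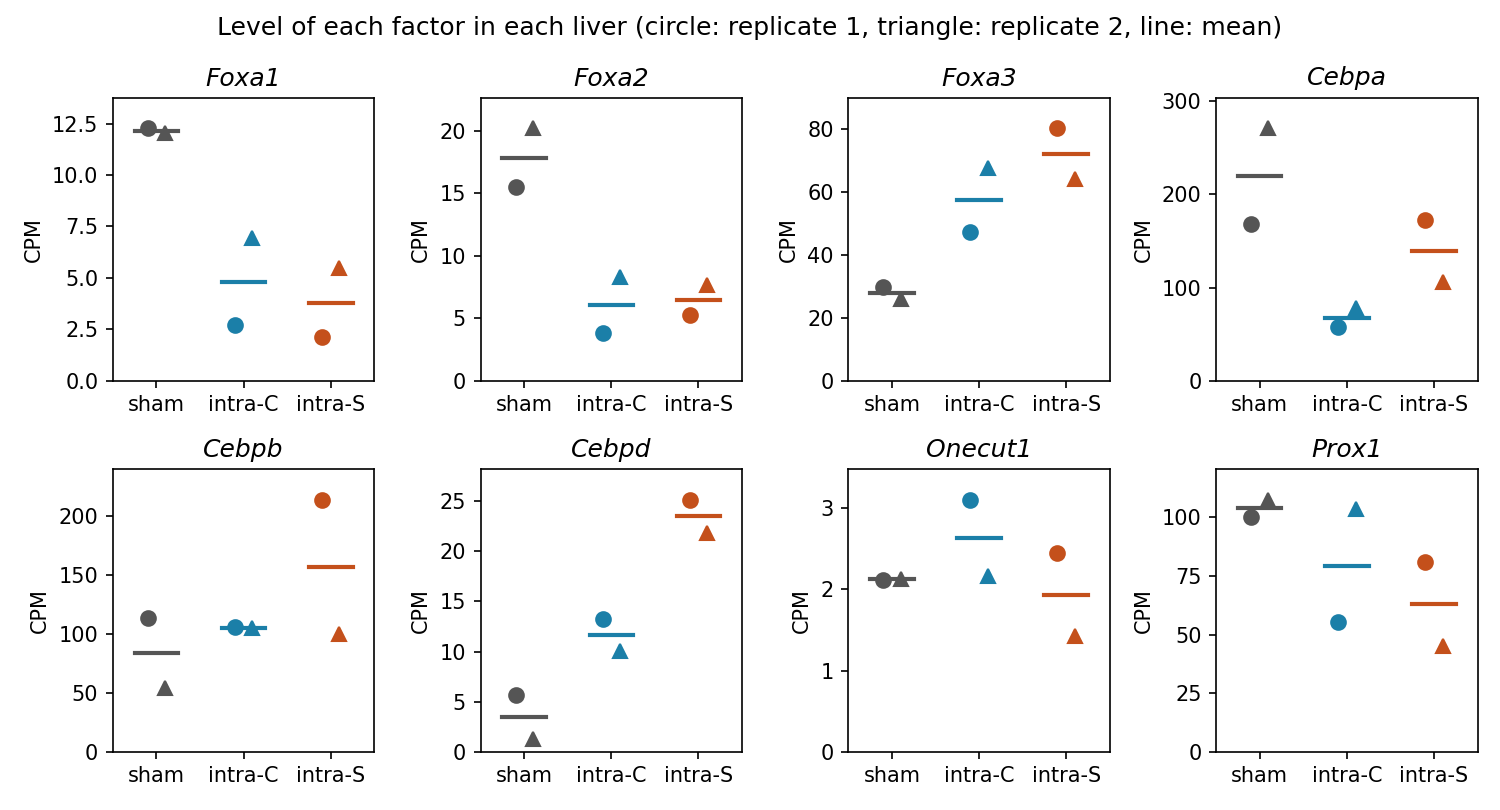
Level of each of the 8 genes in each liver, in CPM (reads relative to the TMM-scaled library size), with a separate linear axis from 0 for each gene. Circles are replicate 1, triangles replicate 2 and lines the group means; Foxa1 and Foxa2 lie lower and Foxa3 and Cebpd higher in all 4 tumor livers than in the sham livers, and Cebpa is lowest in the intra-C livers.

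Among the FOXA genes, Foxa3 rose in intra-S livers. Its higher level in intra-C livers and the lower levels of Foxa1 and Foxa2 in both tumor groups did not pass the test. Foxa3 had 29.9 and 26.0 CPM in sham mice, 47.3 and 67.7 CPM in intra-C livers and 80.3 and 64.2 CPM in intra-S livers. Every tumor liver exceeded both sham livers, and the intra-C and intra-S livers overlapped. In intra-S versus sham livers Foxa3 rose 2.59-fold (log2 fold change 1.37 ± 0.25 SE, 95% interval 0.76 to 1.98, adjusted p = 0.0253, edgeR's quasi-likelihood test). The call was lost when either sham or either intra-C liver was left out of the fit, with log2 fold changes from 1.27 to 1.48, and when only the sham and intra-S livers were fitted. In intra-C versus sham livers the fold was 2.06 (log2 1.04 ± 0.25, interval 0.44 to 1.64), and its adjusted p of 0.0588 missed the threshold. It was called there in 4 of 17 alternatives, by DESeq2 (adjusted p = 0.00693), with only the sham and intra-C livers in the fit (0.0107) and without either intra-S liver (0.00942 and 0.00993). Foxa3 is at chr7:19013283-19023539 on the minus strand (GRCm38.p6), and the promoter printed above ends where this gene begins. The genes whose profile over the 6 livers was most like that of Foxa3, by the root mean square difference of centered log2 CPM among 7249 genes at a mean of 10 CPM or more, were Acnat2, an acyl-CoA conjugating enzyme, at 0.12 and Plxnd1, a semaphorin receptor, also at 0.12.

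Foxa2, at chr2:148042877-148046969 on the minus strand, had 15.5 and 20.2 CPM in sham livers, 3.82 and 8.29 CPM in intra-C livers and 5.28 and 7.63 CPM in intra-S livers. All 4 tumor livers lay below both sham livers. The log2 fold changes were -1.56 ± 0.42 SE (interval -2.56 to -0.56, adjusted p = 0.0735) in intra-C and -1.47 ± 0.41 (interval -2.46 to -0.47, adjusted p = 0.0712) in intra-S livers by edgeR's quasi-likelihood test. Neither passed the threshold, although the unadjusted p-values were 0.00810 and 0.0106. By DESeq2 Foxa2 was called lower in both comparisons (adjusted p = 0.00762 and 0.0107), and it was called in 5 of 17 alternatives for intra-C and in 3 of 17 for intra-S livers. The intra-C livers differed 2.17-fold.

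Foxa1, at chr12:57540628-57548029 on the minus strand, was also lower in all 4 tumor livers than in the sham livers. It had 12.3 and 12.0 CPM in sham livers, 2.70 and 6.93 CPM in intra-C livers and 2.1 and 5.50 CPM in intra-S livers. The sham livers were nearly equal, while the tumor livers of a group differed 2.57-fold (intra-C) and 2.62-fold (intra-S). The log2 fold changes of -1.34 ± 0.58 (interval -2.72 to 0.04, adjusted p = 0.196) and -1.67 ± 0.58 (interval -3.07 to -0.28, adjusted p = 0.115) did not pass edgeR's quasi-likelihood test. Across the 17 alternatives they ran from -2.14 to -0.81 in intra-C and from -2.53 to -1.14 in intra-S livers. Foxa1 was called in 3 of 17 alternatives in intra-C livers, with only the sham and intra-C livers in the fit (adjusted p = 0.0486) or without either intra-S liver (0.0456 and 0.0485), and in 2 of 17 in intra-S livers, by DESeq2 (0.0303) and without the second intra-S liver (0.0146). In both tumor groups the second liver was higher than the first for Foxa1 and for Foxa2. The labels state no link between livers of the same number, and this describes the livers only.

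The makeup of the FOXA family therefore differed between groups on the TPM scale. Foxa3 made up 59.3% and 51.6% of the summed TPM of the 3 FOXA genes in the sham livers, 90.7% and 85.8% in the intra-C livers and 93.3% and 86.8% in the intra-S livers. The sums themselves were 55.6 and 55.5 TPM in sham livers, 48.9 and 78.9 TPM in intra-C and 74.6 and 68.7 TPM in intra-S livers, so that intra-C livers lay on both sides of the sham livers. The ratio of Foxa3 to Foxa2, which does not depend on library scaling, was 2.24 and 1.50 in sham livers, 14.4 and 9.49 in intra-C livers and 17.7 and 9.78 in intra-S livers. The ratio of Foxa3 to Foxa1 was 4.15 and 3.69 in sham livers, 29.9 and 16.7 in intra-C livers and 65.2 and 19.9 in intra-S livers. Neither ratio overlapped between sham and tumor livers, and both overlapped between the tumor groups. The ratio of Foxa1 to Foxa2 ranged from 0.406 to 0.540 in sham livers, from 0.482 to 0.570 in intra-C and from 0.271 to 0.491 in intra-S livers, with overlap of all groups. The ratios are given as descriptions and were not tested.

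**Figure D2:**
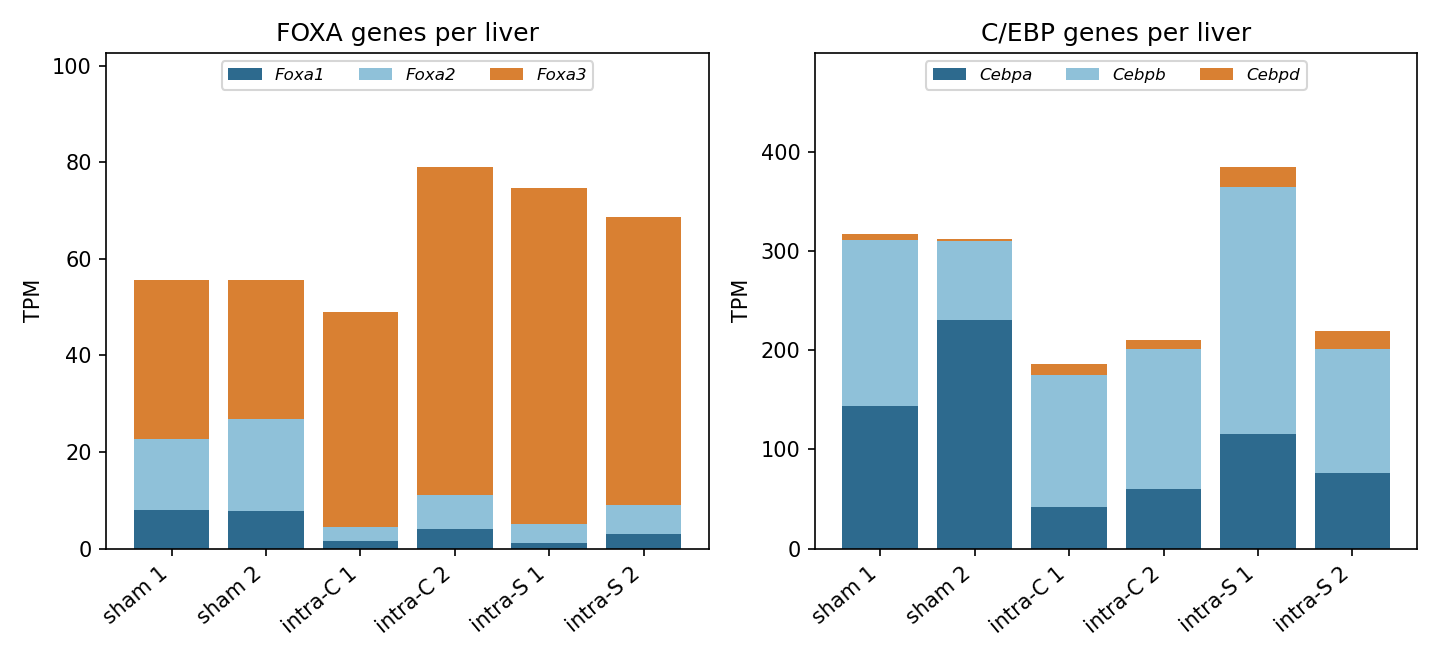
Stacked TPM of the 3 FOXA genes (left) and the 3 C/EBP genes (right) in each of the 6 livers, on linear axes from 0. Foxa3 takes 85.8% to 93.3% of the FOXA sum in the 4 tumor livers against 51.6% and 59.3% in the sham livers, and Cebpa takes 22.5% to 34.7% of the C/EBP sum in the tumor livers against 45.3% and 74.0% in the sham livers.

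Among the C/EBP genes, Cebpa fell in intra-C livers, Cebpd rose in intra-S livers and Cebpb was called in neither group. Cebpa, at chr7:35119293-35121928 on the plus strand, had 168 and 271 CPM in sham livers, 57.7 and 77.7 CPM in intra-C livers and 172 and 106 CPM in intra-S livers. The intra-C livers were the lowest of the 6, and the first intra-S liver lay between the sham livers. In intra-C versus sham livers Cebpa was 3.24-fold lower (log2 fold change -1.70 ± 0.36 SE, interval -2.55 to -0.84, adjusted p = 0.0423, edgeR's quasi-likelihood test). In intra-S versus sham livers the log2 fold change was -0.66 ± 0.35 (interval -1.49 to 0.18, adjusted p = 0.258). The call in intra-C livers was lost when any sham or intra-C liver was left out, with log2 fold changes from -2.00 to -1.31 in those fits. The genes most like Cebpa over the 6 livers were ND3, a mitochondrially encoded subunit of complex I, and Lrtm1, a leucine-rich repeat protein gene, at root mean square differences of 0.26 each.

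Cebpb, at chr2:167688915-167690432 on the plus strand, had 113 and 53.8 CPM in sham livers, 106 and 105 CPM in intra-C livers and 214 and 100 CPM in intra-S livers. The groups overlapped in every comparison, and the first intra-S liver was the highest. The log2 fold changes were 0.34 ± 0.46 (interval -0.76 to 1.43, adjusted p = 0.682) in intra-C and 0.91 ± 0.46 (interval -0.19 to 2.02, adjusted p = 0.238) in intra-S versus sham livers by edgeR's quasi-likelihood test. These intervals include no change and also a rise of over 1 on the log2 scale. Across the 17 alternatives the log2 fold change in intra-S livers ran from 0.265 to 1.55, and 1 of them called Cebpb there. The sham livers differed 2.1-fold for Cebpb, and a gap of over 2-fold between them was seen for 1.03% of 7250 genes with a mean of at least 10 CPM. The first sham liver, higher for Cebpb, was also the lower for Cebpa. In the GENCODE annotation, 20.7% of the Cebpb exon bases are shared with Tmem189 on the other strand. Since the sources used here do not state whether counting used strand, reads of the 2 genes may not be told apart there. Tmem189 itself was listed at 4.13 to 18.1 CPM, with the highest value in the first intra-S liver.

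Cebpd, at chr16:15887286-15889545 on the plus strand, had 5.64 and 1.31 CPM in sham livers, 13.3 and 10.1 CPM in intra-C livers and 25.1 and 21.8 CPM in intra-S livers. The 3 groups did not overlap, and the intra-S livers were the highest. In intra-S versus sham livers Cebpd rose 6.76-fold (log2 fold change 2.76 ± 0.63 SE, interval 1.25 to 4.26, adjusted p = 0.0421, edgeR's quasi-likelihood test). In intra-C versus sham livers the log2 fold change was 1.75 ± 0.61 (interval 0.29 to 3.21), with an adjusted p of 0.131 (0.0325 by DESeq2, the only alternative of 17 that called it). The sham livers differed 4.30-fold, with 229 and 58 reads, and the size of the change depended on them: without the first sham liver it was 4.16 in intra-S livers and without the second 2.05, neither called. The call was also lost without either intra-C liver and with only the sham and intra-S livers in the fit. Of the exon bases of Cebpd, 15% are shared with Spidr on the other strand, which was listed at 3.50 to 5.88 CPM. The genes most like Cebpd were Mki67, a proliferation marker, at 0.47 and Fcer1g, the common gamma chain of Fc receptors of myeloid cells, at 0.51, which is a looser likeness than for Foxa3 or Cebpa.

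The balance of the C/EBP genes within each liver is described here by ratios, which were not tested. The TPM ratio of Cebpb to Cebpa was 1.17 and 0.345 in sham livers, 3.18 and 2.35 in intra-C livers and 2.16 and 1.64 in intra-S livers. The ratio of Cebpd to Cebpa was 0.0391 and 0.00565 in sham livers, 0.268 and 0.151 in intra-C livers and 0.170 and 0.240 in intra-S livers. Both ratios were higher in all 4 tumor livers than in the sham livers. Mean log2 ratios of Cebpb to Cebpa were 2.11 higher in intra-C and 1.57 higher in intra-S than in sham livers, and those of Cebpd to Cebpa were 3.76 higher in each. The size of these differences depended on the sham livers. Without the first sham liver they were 2.99 and 2.45 for Cebpb to Cebpa and 5.15 and 5.16 for Cebpd to Cebpa, and without the second 1.23 and 0.69, and 2.36 and 2.37. Cebpa made up 45.3% and 74.0% of the summed C/EBP TPM in sham livers, 22.5% and 28.6% in intra-C livers and 30.1% and 34.7% in intra-S livers. The sums were 317 and 312 TPM in sham livers, 186 and 210 TPM in intra-C livers and 384 and 219 TPM in intra-S livers.

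**Figure D3:**
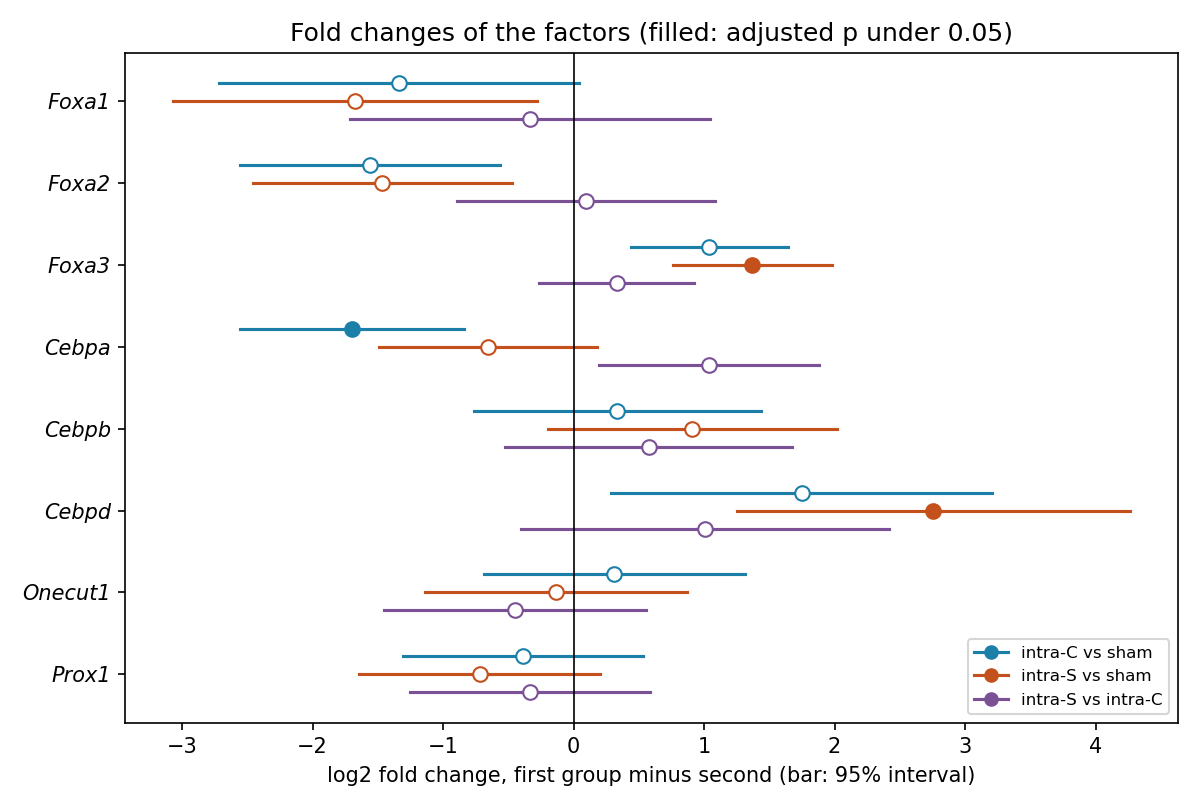
Log2 fold changes of the 8 genes in intra-C versus sham, intra-S versus sham and intra-S versus intra-C livers, with 95% intervals from edgeR's quasi-likelihood fit over all 6 livers. Filled points have an adjusted p under 0.05: Cebpa in intra-C versus sham, and Foxa3 and Cebpd in intra-S versus sham.

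Onecut1 and Prox1 were called in no comparison. Onecut1, at chr9:74861921-74889648 on the plus strand, had 2.12 and 2.13 CPM in sham livers, 3.11 and 2.17 CPM in intra-C livers and 2.45 and 1.42 CPM in intra-S livers. The values rest on 58 to 122 reads per liver, well above the 3 reads that an observed 0 still allows. The log2 fold changes were 0.31 ± 0.42 (interval -0.68 to 1.31, adjusted p = 0.673) in intra-C and -0.14 ± 0.42 (interval -1.14 to 0.87, adjusted p = 0.857) in intra-S versus sham livers. The lincRNA gene Gm20649 shares 52.8% of the Onecut1 exon bases on the same strand, so that the Onecut1 counts are uncertain if the authors' annotation holds both. The count table does not list Gm20649.

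Prox1, at chr1:190118035-190170827 on the minus strand, had 100 and 108 CPM in sham livers, 55.5 and 103 CPM in intra-C livers and 80.8 and 45.3 CPM in intra-S livers. Both intra-S livers lay below the sham livers, and the second intra-C liver lay within them. The log2 fold changes were -0.39 ± 0.38 (interval -1.30 to 0.53, adjusted p = 0.564) in intra-C and -0.72 ± 0.38 (interval -1.64 to 0.20, adjusted p = 0.261) in intra-S versus sham livers by edgeR's quasi-likelihood test. Prox1os, an antisense gene that shares 1.59% of the Prox1 exon bases, was listed at 1.84 to 3.21 CPM.

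The direct comparison of intra-S with intra-C livers called 0 of the 8 members by edgeR's quasi-likelihood test, where 0% of all genes were called, with 1 member and 13.4% of all genes at an unadjusted p under 0.05. DESeq2 called 0 members and 524 of all genes. Cebpa was the member at an unadjusted p under 0.05: it was 2.06-fold higher in intra-S livers (log2 fold change 1.04 ± 0.35, interval 0.20 to 1.88, adjusted p = 0.327 by edgeR), and the groups did not overlap. Cebpd, the other member without overlap, had a log2 fold change of 1.01 ± 0.59 (interval -0.40 to 2.42, adjusted p = 0.478). Among all genes 43.3% did not overlap here. The difference was 0.33 (interval -0.27 to 0.93) for Foxa3, 0.10 (interval -0.89 to 1.08) for Foxa2 and -0.33 (interval -1.71 to 1.05) for Foxa1, so that changes of up to about 2-fold in either direction lie within the interval of Foxa2. The calls of Cebpa in intra-C livers and of Cebpd and Foxa3 in intra-S livers therefore do not show that the tumor groups differ in these genes.

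**Figure D4:**
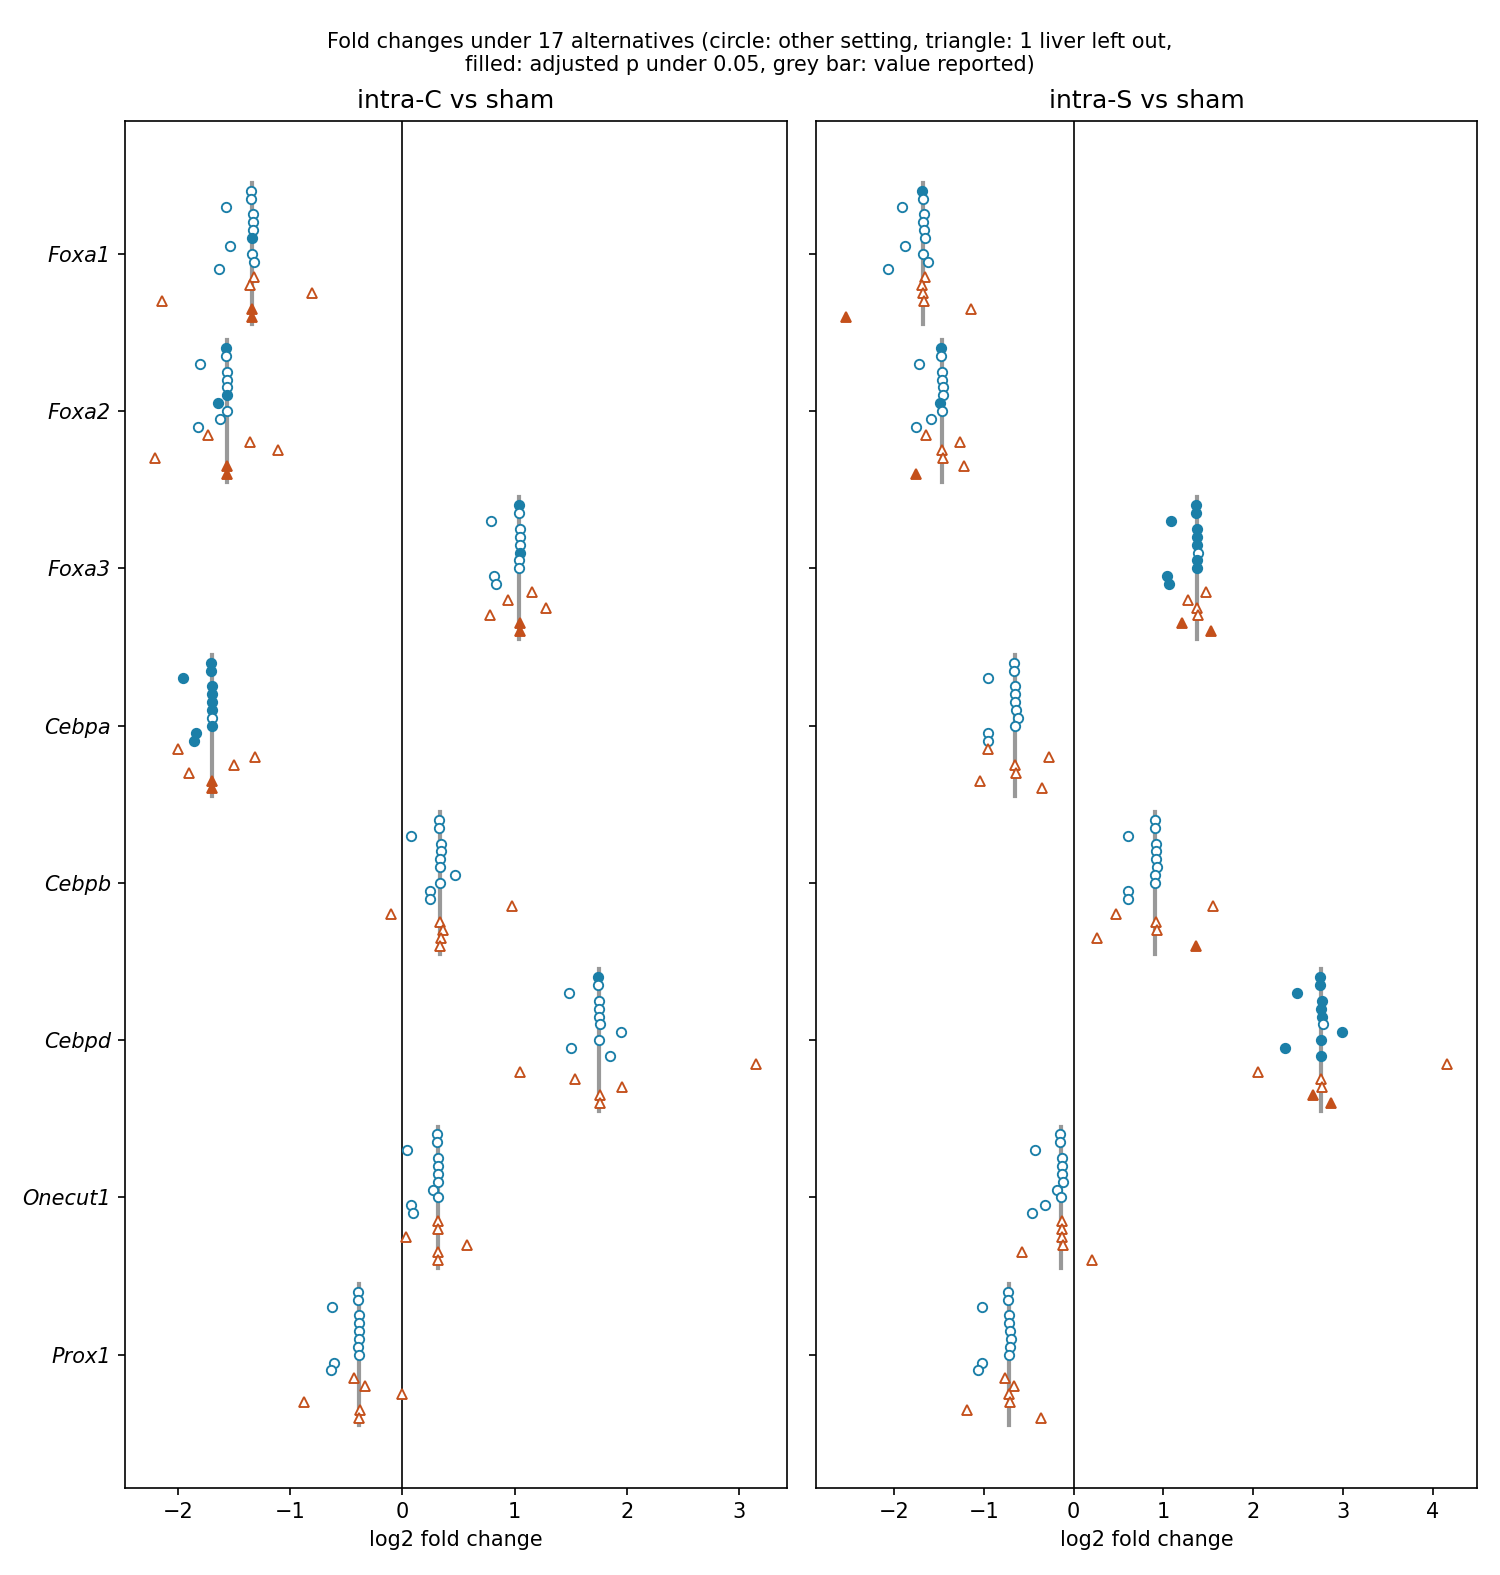
Log2 fold changes of the 8 genes versus sham under 17 alternative settings: circles are other methods, filters or scalings, triangles leave out a single liver, filled points have an adjusted p under 0.05, and grey bars are the reported values. Foxa1, Foxa2 and Cebpa stay below 0 and Foxa3 and Cebpd above 0 in all settings of both panels, while calls come and go.

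Other genes of the network were read from lists, as counts of called genes by edgeR's quasi-likelihood test and medians of the list. Over all genes tested, 4.92% were called higher and 2.38% lower in intra-C and 6.78% higher and 3.95% lower in intra-S versus sham livers, with median log2 fold changes of 0.01 and 0.04, against which the counts and medians of the lists can be read. Of 23 other liver-enriched factors, 0 were higher and 2 lower in intra-C and 0 higher and 4 lower in intra-S versus sham livers, with median log2 fold changes of -0.43 and -0.61. Nr1i3, the nuclear receptor CAR that controls drug metabolism, fell in intra-C (log2 fold change -1.55 ± 0.28, adjusted p = 0.0291) and in intra-S livers (-1.53 ± 0.28, adjusted p = 0.0241). Hlf, a circadian leucine zipper factor, fell in both groups (-1.12 ± 0.22, adjusted p = 0.0380, and -1.08 ± 0.22, adjusted p = 0.0343). Ppara, the receptor that drives fatty acid oxidation on fasting, fell in intra-S livers (-1.38 ± 0.27, adjusted p = 0.0301), and the fourth factor called there was Tef. Of 9 C/EBP relatives and regulators, 1 was higher and 0 lower in each tumor group, with medians of 0.73 and 0.89. This gene was Cebpe, which is known as a factor of granulocyte maturation rather than of hepatocytes. Cebpe had 0 reads in both sham livers, 0.789 and 2.60 CPM in intra-C and 2.51 and 0.736 CPM in intra-S livers, which is at least 22.9-fold and 21.9-fold higher than the 3 reads that an observed 0 still allows in the shallower sham library (10.7-fold and 9.96-fold in the lower liver of each group, adjusted p = 0.0390 and 0.0326), and the medians are the same with Cebpe at these bounds.

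The targets of these factors fell into different patterns. Of 18 hepatocyte genes known as targets of FOXA, C/EBP or related factors, 2 were higher and 1 lower in each tumor group, with medians of 0.33 and 0.19. Igfbp1, an insulin-regulated IGF binding protein with a FOXA site, rose in intra-C (log2 fold change 5.83 ± 1.17, adjusted p = 0.0382) and intra-S livers (5.92 ± 1.18, adjusted p = 0.0307), with an SD as large as the mean in intra-C livers (2622 ± 2618 CPM against 46.2 ± 36.2 in sham livers). Apob, the structural protein of VLDL, rose in intra-C livers (1.00 ± 0.22, adjusted p = 0.0456), and Trf, transferrin, rose in intra-S livers (1.34 ± 0.24, adjusted p = 0.0232). Otc, a urea cycle enzyme, fell in both (-1.33 ± 0.22, adjusted p = 0.0230, and -1.73 ± 0.22, adjusted p = 0.0102). Of 19 acute phase genes with C/EBP sites in their regulatory regions, 18 were higher in intra-C and 17 in intra-S livers and 0 lower, with medians of 3.01 and 2.90. Lcn2, an iron-siderophore binding protein, rose from 7.71 ± 0.0777 CPM to 2164 ± 927 CPM in intra-C and 2515 ± 1253 CPM in intra-S livers (adjusted p = 0.00543 and 0.00446). The serum amyloid genes Saa1 (log2 fold changes 7.99 ± 1.40 and 6.50 ± 1.31, adjusted p = 0.0283 and 0.0313) and Saa2 (8.74 ± 1.84 and 7.11 ± 1.71, adjusted p = 0.0424 and 0.0488) rose as well. The intra-S livers differed widely for both, with 613 and 6515 CPM for Saa1 and 182 and 5268 CPM for Saa2, and so did the sham livers, with 17.4 and 61.1 CPM for Saa1 and 7.39 and 32.1 CPM for Saa2. The size of these rises therefore depends on single livers. Only unique reads were counted, so that reads matching both of these near-identical copies may be missing from their counts.

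Of 16 genes of IL-6, IL-1 and TNF signaling, known inputs to Cebpb and Cebpd in the acute phase, 15 were tested, all but Tnf. In intra-C livers 7 were higher and 1 lower and in intra-S livers 5 were higher and 1 lower, with medians of 1.82 and 1.00. The genes called higher in both groups include Tnfrsf1a, the TNF receptor gene. Socs3, the feedback inhibitor induced by STAT3, rose (log2 fold changes 4.05 ± 0.61, adjusted p = 0.0195, and 3.49 ± 0.60, adjusted p = 0.0213), as did Osmr, a receptor subunit for oncostatin M (3.24 ± 0.41, adjusted p = 0.0130, and 2.68 ± 0.40, adjusted p = 0.0154). Il1b, a cytokine of myeloid cells, rose in both groups (3.78 ± 0.69, adjusted p = 0.0316, and 3.47 ± 0.69, adjusted p = 0.0303). The intra-S livers differed widely for Socs3, with 9.86 and 31.0 CPM, and for Osmr, with 8.05 and 17.1 CPM. Il1b had 11.9 and 4.45 CPM in intra-C against 0.320 and 0.860 CPM in sham livers. The size of these rises therefore depends on single livers. In intra-C, by contrast, Osmr was nearly equal in both livers, at 18.6 CPM in each, against 2.24 and 1.70 CPM in sham livers. Lifr, the receptor of leukemia inhibitory factor, fell in both (-1.04 ± 0.23, adjusted p = 0.0457, and -1.78 ± 0.23, adjusted p = 0.0110).

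Markers of other cells moved with the groups, and in whole liver fewer cells of a type and less RNA per cell cannot be told apart. All 11 hepatocyte markers were detected in every liver, at summed levels of 109990 to 117200 CPM in sham, 104440 to 143300 in intra-C and 124210 to 180040 in intra-S livers, with 1 higher and 1 lower in intra-C and 0 higher and 3 lower in intra-S livers. Most of each sum was Alb, with 94260 and 87423 CPM in sham, 120680 and 84369 in intra-C and 156590 and 108440 in intra-S livers. The sums therefore say little about the other markers. The median log2 fold changes of the 11 were -0.27 in intra-C and 0.11 in intra-S livers. Beside the higher Cebpd, all 11 neutrophil markers were called higher in both tumor groups, with sums of 3.84 to 5.07 CPM in sham, 289 to 644 in intra-C and 433 to 1084 in intra-S livers, and Mpo, Elane and Camp were at 0 in both sham livers. Of 9 monocyte and macrophage markers 7 and 6 were higher, with sums of 187 to 196 CPM, 799 to 1016 and 561 to 891. Beside Foxa1, Foxa2 and Onecut1, which biliary cells also express, the 7 cholangiocyte markers, 6 of them tested, summed to 15.6 to 20.3 CPM in sham, 66.9 to 99.2 in intra-C and 25.5 to 186 in intra-S livers, most of it Spp1, with 0 and 1 called higher, and Cftr was at 0 in both intra-C livers and Krt19 in the second. Beside Prox1, the 5 listed of 6 lymphatic endothelial markers summed to 58.3 to 63.3 CPM in sham, 86.3 to 93.6 in intra-C and 73.2 to 184 in intra-S livers, with 1 and 3 called higher, with Mmrn1 at 0 in both sham livers and Pdpn in the second intra-C liver. Reln made up most of this sum in sham livers (53.8 and 50.3 CPM) and had 32.8 and 40.6 CPM in intra-S livers, where Lyve1 reached 112 CPM in the first. Which cells of whole liver express these 5 genes cannot be told from these data, so that their sum is not a measure of lymphatic endothelium alone. Proliferation markers summed to 9.12 to 16.2 CPM in sham, 29.2 to 34.6 in intra-C and 68.3 to 78.8 in intra-S livers (1 and 4 of 6 higher). Of the remaining lists, 4 and 3 of 5 blood endothelial, 0 and 2 of 7 stellate cell and fibroblast, 0 and 6 of 6 erythroid and 0 and 0 of 6 lymphocyte markers were called higher and none lower. Of the colon epithelium list, 3 of 6 genes were listed and none tested, with sums of 0 CPM in both sham livers, 0.127 and 0 CPM in intra-C and 2.51 and 6.33 CPM in intra-S livers, and none of 5 exocrine pancreas genes was listed. The part of these cells in the results of the 8 genes was not tested.

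Library totals were 32838321 to 43368309 counts, and the 3 counts that an observed 0 still allows correspond to 0.0679 to 0.0928 CPM. The members rested on 58 to 11973 counts per liver, and these limits cover counting error only. Livers of a group differed more in the tumor groups: over 2-fold for 2.83% of 7250 genes in intra-C and for 17.0% in intra-S livers. Each group held 2 members with such a gap, Cebpb and Cebpd in sham, Foxa1 and Foxa2 in intra-C, and Foxa1 and Cebpb in intra-S livers.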

How the data were processed

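Poly(A) RNA of 6 livers was sequenced, 2 per group. Alignment by the authors was to mm10 with HISAT2 2.1.0, and featureCounts (Subread 2.0.6) gave the count of unique exon reads per gene, deposited without normalization. The authors also deposited TPM values, calculated from these counts and gene lengths. The gene annotation and the use of strand are not given in the sources used here. Counts were tested here with edgeR 4.0.16 in R 4.3.3 (TMM, filterByExpr with a minimum of 10 counts, quasi-likelihood test, 1 fit over the 3 groups, Benjamini-Hochberg adjustment over 16370 genes, threshold 0.05). The study's methods state no test for the bulk livers. TPM was used to compare levels between genes. Library totals ranged from 32838321 to 43368309 counts. Named beside the 8 members are up to 3 called genes per direction and list with the largest change (mean of 1 CPM or more), the 2 most similar genes of each called member, and the most abundant gene of marker lists where it matters; Tef, Tnf, Tnfrsf1a, Lyve1 and the markers at 0 were named after their values were seen. The members and lists were chosen with earlier results of these data known. Alternatives were DESeq2 1.42.0, its size factors, plain library sizes, TMM leaving out the 100 most abundant genes, no filter, a filter of 10 counts in each liver, fits restricted to the groups compared, a replicate block, a robust spread estimate, limma 3.58.1 on log2(TPM + 1) and log2(TPM + 0.1), and each liver left out. Gene positions are from RefSeq on GRCm38.p6 and exon overlaps from GENCODE.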

Additional observations from a re-analysis of the deposited data

How the results depend on the processing

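Directions against sham were the same in all 17 alternatives for Foxa1, Foxa2, Foxa3, Cebpa, Cebpd and Prox1. Calls were less stable. Cebpa in intra-C livers was called in 12 of 17 (adjusted p from 2.8e-04 to 0.294), and Foxa3 (1.2e-04 to 0.219) and Cebpd (1.3e-04 to 0.103) in intra-S livers also in 12 of 17. In intra-C versus sham livers, 1 member and 1195 genes were called, against 4 and 2819 by DESeq2 and 4 and 4771 with only the livers of both groups. In intra-S versus sham livers, 2 members and 1756 genes were called, against 4 and 3530 by DESeq2 and 0 and 392 with only the livers of both groups. In intra-S versus intra-C livers DESeq2 called 524 genes. With a liver left out the counts ran from 0 to 4 members and 0 to 4658 genes (intra-C versus sham), 0 to 5 and 0 to 5693 (intra-S versus sham) and 0 to 1 and 0 to 2884 (intra-S versus intra-C), where a lone liver was assumed to vary like the other groups. Without either sham liver no gene was called against sham, and without either intra-C liver 0 members were called in intra-S livers. Without the second intra-S liver Cebpa was called higher in intra-S than in intra-C livers (adjusted p = 0.0249). The cause was not tested.

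Without TMM the median of all genes was -0.25 and -0.23, and the 806 higher and 389 lower calls in intra-C livers became 569 and 801, the 1110 and 646 in intra-S livers 838 and 1115; limma on log2(TPM + 1) gave 497 and 896, and 685 and 1553, and on log2(TPM + 0.1) 589 and 890, and 804 and 1476. With a liver left out, log2 fold changes took either sign for Cebpb in intra-C versus sham (-0.10 to 0.97, negative without the second sham liver) and for Onecut1 in intra-S versus sham (-0.57 to 0.21, positive without the second intra-S liver). In intra-S versus intra-C livers this held for Foxa1 (-1.19 to 0.48, also 0.20), Foxa2 (-0.36 to 0.74, also -0.19), Cebpb (-0.075 to 1.02) and Prox1 (-0.81 to 0.17, also 0.02). None of these values was called, and the cause was not tested.

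Differences between the first and second livers had correlations between groups of -0.02, 0.18 and 0.11 over 7250 genes. With 1 such difference per group, these values do not settle whether livers of the same number belong together. With a replicate block the calls were 1, 3 and 0 members and 932, 1507 and 0 genes. Under the block Cebpa in intra-C livers had an adjusted p of 0.0587 and Foxa2 of 0.0342 and 0.0334.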
